A study of Mus musculus with 26 samples.

Results

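Ribosomal protein pseudogenes were followed in spleen RNA of mice. An entry of the deposited expression table was taken as such a pseudogene when its symbol began with Rpl or Rps followed by a digit or p, and when its biotype named a pseudogene or its symbol carried the suffix -ps. Of 56392 entries, 317 met this rule. Levels are in FPKM (fragments per kilobase of gene length, scaled by a size for each library). At least 1 FPKM in at least 5 libraries was reached by 110 of them. The other 207 were set aside, 99 of which were listed at 0 in every library. The 110 comprised 67 copies of large-subunit (Rpl) genes and 43 copies of small-subunit (Rps) genes. The table's biotype called 98 of them processed pseudogenes, 8 transcribed processed pseudogenes and 4 protein-coding (Rps18-ps5, Rpl9-ps6, Rpl10-ps3 and Rpl36a-ps1). A parent gene was found by symbol for 104, and these had 44 different parents. The other 6 (Rps3a2, Rps3a3, Rps4l, Rpl6l, Rpl32l and Rpl37rt) have symbols that name no parent.

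Ribosomal protein genes encode the protein components of the large and small ribosomal subunits, and their mRNAs are abundant in nearly every cell. Processed pseudogenes arose when spliced mRNAs were reverse-transcribed, in mammals mainly by the LINE-1 machinery, and inserted at other places in the genome. They lack introns and mostly lack a promoter of their own, and ribosomal protein mRNAs have left more of them than almost any other class. A young copy can differ from the mRNA of its parent at few bases, so a short read from the parent's mRNA can fit the copy as well as the parent.

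The study sequenced poly(A)-selected spleen RNA of female BALB/c mice aged 8 weeks, in 26 libraries. Of these, 10 came from mice given OVA (ovalbumin, the main protein of egg white, which serves as a model allergen) together with a mimic of miR-676-3P, 5 coded MM and 5 coded MN. Mice given OVA without the mimic gave a further 11, of which 6 had the code OS and 5 the code ON, and saline-treated mice gave 5, with the code CT. OVA was injected into the peritoneum at 0.05 mg per day on days 1, 3 and 5, and a dose of 7 mg per kg of the mimic was given by tail vein on day 3, both per the labels. No source used here defines the 2-letter codes, says which of the 20 mice named for a group gave a library, or says whether a library is 1 mouse. The p-values therefore measure the spread between libraries, which may be technical.

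Recovered reads ranged from 14224832 to 18113989 per library, and 1 read on 1 kilobase was worth 0.0520 to 0.0899 FPKM. The library size implied by the FPKM was 0.712 (ON 2) to 1.12 (ON 1) times the recovered reads, and 0.802 times in CT 4. It followed median-of-ratios factors, so FPKM were not scaled to total reads, and a read counted for most FPKM in ON 2. Genes that mark splenic B cells, T cells, red pulp macrophages and erythroid cells were above 1 FPKM in all 26 libraries. Pancreas genes took 13.8% of reads in MM 2, 27.7% in ON 2 and 4.16% in ON 3, and at most 0.00336% in every other library. Mitochondrial genes took 6.62% of reads in CT 4. The 110 pseudogenes took 0.268% (ON 2) to 0.629% (CT 4) of reads, and cytosolic ribosomal protein genes took 2.56% (ON 2) to 7.36% (CT 1). Pseudogene reads were 7.99% to 10.5% of ribosomal protein gene reads. In bulk RNA, fewer cells of a type and less RNA per cell cannot be told apart.

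The sequences show how little separates copy and parent. They are coding stretches of GENCODE M21 transcripts on the GRCm38 build (C57BL/6J strain), matched by gene ID, written 5′ to 3′ in the sense of the parent, and a capital marks a base that differs from the parent. Positions count from 1 at the A of the parent's start codon. For a parent the interval given is that of its whole transcript, and for a pseudogene that of the stretch shown.

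Rps12, a small-subunit protein gene (chr10:23785183-23787275, minus strand), is shown in part because its copies gave both the highest level and some of the largest changes. Rps12-ps3 (chr19:59322431-59322680, plus strand) has the same letters as Rps12 over its whole alignment and so is not written out. Rps12-ps9 (chr8:123206683-123206932, plus strand) carries C78T and C117G in this stretch, and Rps12-ps10 (chr2:122220053-122220302, plus strand) carries C75A, G109A, A231C and C294G.
Rps12: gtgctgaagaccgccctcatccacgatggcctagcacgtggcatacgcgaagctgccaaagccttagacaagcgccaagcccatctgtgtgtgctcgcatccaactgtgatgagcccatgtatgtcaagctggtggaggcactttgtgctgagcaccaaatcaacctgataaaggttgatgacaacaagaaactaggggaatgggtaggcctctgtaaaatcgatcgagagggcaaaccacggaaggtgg
Rps12-ps9: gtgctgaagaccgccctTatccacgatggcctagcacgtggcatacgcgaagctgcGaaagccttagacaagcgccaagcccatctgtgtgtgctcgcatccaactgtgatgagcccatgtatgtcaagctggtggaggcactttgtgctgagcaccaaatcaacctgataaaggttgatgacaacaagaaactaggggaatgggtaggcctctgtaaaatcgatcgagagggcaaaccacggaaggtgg
Rps12-ps10: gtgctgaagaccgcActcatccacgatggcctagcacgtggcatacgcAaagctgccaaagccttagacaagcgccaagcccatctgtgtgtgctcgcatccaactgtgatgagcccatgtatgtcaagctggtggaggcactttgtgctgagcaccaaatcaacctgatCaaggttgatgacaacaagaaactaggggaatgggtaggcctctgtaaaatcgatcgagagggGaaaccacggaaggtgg

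Rpl35a, a large-subunit protein gene (chr16:33056453-33060189, plus strand), is shown in part because 4 of its copies are identical to each other over all 333 annotated bases and still differ in level. Rpl35a-ps2 (chr1:181242021-181242220), Rpl35a-ps3 (chr17:29137005-29137204), Rpl35a-ps4 (chr2:108874959-108875158) and Rpl35a-ps6 (chr5:123255514-123255713), all on the minus strand, share the change G156A. Rpl35a-ps5 (chr5:33076138-33076337, plus strand) adds A171G and C234T. They are the only set of members with identical sequences.
Rpl35a: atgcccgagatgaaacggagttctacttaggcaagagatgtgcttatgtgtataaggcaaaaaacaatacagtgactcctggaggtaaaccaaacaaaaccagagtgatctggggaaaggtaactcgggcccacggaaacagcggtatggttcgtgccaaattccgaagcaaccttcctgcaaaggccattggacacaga
Rpl35a-ps2: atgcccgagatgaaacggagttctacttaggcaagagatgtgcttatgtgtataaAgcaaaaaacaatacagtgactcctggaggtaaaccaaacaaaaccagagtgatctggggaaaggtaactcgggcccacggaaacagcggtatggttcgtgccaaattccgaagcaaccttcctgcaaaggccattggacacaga
Rpl35a-ps5: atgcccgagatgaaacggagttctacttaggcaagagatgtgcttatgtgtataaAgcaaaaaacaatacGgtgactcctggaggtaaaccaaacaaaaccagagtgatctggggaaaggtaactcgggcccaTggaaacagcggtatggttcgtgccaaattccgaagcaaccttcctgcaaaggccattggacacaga

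Rps10 (chr17:27630424-27636669, minus strand) and Rps18 (chr17:33951999-33955677, minus strand) are small-subunit protein genes, and Rpl21 (chr5:146832890-146837032, plus strand) encodes a large-subunit protein. Each was listed far below a copy of its own, which is why the stretches that tell parent and copy apart are shown. Rps10-ps2 (chr16:20822161-20822260, minus strand) carries T393C, T408C, C437G, A438G and G473A here. Rpl21-ps15 (chrX:151215210-151215319, minus strand) carries T336C, G378A and T432C here. Rps18-ps5 (chr13:28257636-28257815, plus strand) carries T11A and A171C within the first bases of the coding sequence.
Rps10: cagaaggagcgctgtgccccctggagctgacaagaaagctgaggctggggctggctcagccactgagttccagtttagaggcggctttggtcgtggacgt
Rps10-ps2: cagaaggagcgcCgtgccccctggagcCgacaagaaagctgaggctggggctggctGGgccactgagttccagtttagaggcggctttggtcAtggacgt
Rpl21: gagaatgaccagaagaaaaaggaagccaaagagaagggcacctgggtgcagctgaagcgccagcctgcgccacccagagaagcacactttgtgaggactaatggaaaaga
Rpl21-ps15: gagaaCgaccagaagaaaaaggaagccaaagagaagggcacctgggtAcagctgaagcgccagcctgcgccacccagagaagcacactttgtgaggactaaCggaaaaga
Rps18: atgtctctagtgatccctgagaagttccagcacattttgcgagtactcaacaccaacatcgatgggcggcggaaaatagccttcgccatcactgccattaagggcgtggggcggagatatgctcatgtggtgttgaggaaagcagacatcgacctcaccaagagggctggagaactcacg
Rps18-ps5: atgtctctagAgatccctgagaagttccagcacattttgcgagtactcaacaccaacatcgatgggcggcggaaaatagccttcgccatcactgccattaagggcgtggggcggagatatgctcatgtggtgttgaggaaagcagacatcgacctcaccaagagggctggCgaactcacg

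Rpl9, of the large subunit (chr5:65388364-65391444, minus strand), and Rps13, of the small subunit (chr7:116331505-116334195, minus strand), are parents of members with clear differences between groups. Rpl9-ps6 (chr19:32466252-32466311, minus strand) carries G266A, its only mismatch. Rps13-ps1 (chr8:87048120-87048175, plus strand) carries T411C and A429G, also its only mismatches.
Rpl9: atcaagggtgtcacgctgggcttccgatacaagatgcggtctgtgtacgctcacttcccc
Rpl9-ps6: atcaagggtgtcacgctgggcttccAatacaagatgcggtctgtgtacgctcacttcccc
Rps13: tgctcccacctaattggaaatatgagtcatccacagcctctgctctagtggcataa
Rps13-ps1: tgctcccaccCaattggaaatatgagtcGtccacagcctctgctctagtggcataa

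All 110 members had a transcript in this annotation. Identity to the closest ribosomal protein mRNA had a median of 99.1% and ran from 79.7% to 100%, and 13 members had neither a mismatch nor a gap. The reading frame was open from start to stop codon in 61, and open but with a changed or missing start or stop in 25. The other 24 are called interrupted, by a frame-shifting gap or a stop before the parent's codon number. This rule takes in Rpl14-ps1 (216 of the parent's 217 codons) and Rps19-ps3 (143 of 145), whose gaps do not shift the frame. It also takes in Rps4l, which read 262 of 263 codons despite 11 frame-shifting gaps in its alignment. For 103 of the 104 members with a parent, the closest gene by sequence was that parent. All ratios below are to the parent that the symbol names. For 18 members every window of 100 bases occurs unchanged in the transcripts of another gene, and for 6 members none does. Reads of an entry with many shared windows are uncertain between it and the other gene, and the sources used here do not state how reads with several fitting places were counted. Spans of other protein-coding or lncRNA genes, introns included, overlap 48 members, 16 of them on the same strand. An exon of another gene overlaps 3 members on GRCm38. Whether the libraries keep strand is not stated, so reads of overlapping genes cannot be told apart where they cover the same bases.

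Members closest to their parent's sequence were listed at higher levels. The median of the members' mean FPKM was 16.4 among 61 members with at least 99% identity, 2.17 among 34 with 97% to under 99%, 2.30 among 10 with 93% to under 97%, and 0.947 among 5 below 93%. All 15 members with a mean of at least 100 FPKM had at least 98.9% identity. Identity did not fix the level, however, since the 13 members without a mismatch or gap ranged from 3.40 FPKM (Rpl10-ps3) to 834 FPKM (Rps12-ps3). The identical Rpl35a copies averaged 54.2 FPKM for Rpl35a-ps2, 3.25 for Rpl35a-ps3, 1.28 for Rpl35a-ps4 and 0.654 for Rpl35a-ps6, an 83.0-fold range. Members with a frame open from start to stop had a median of 6.88 FPKM, and those called interrupted by the rule above 3.02 FPKM. These relations are descriptions across genes, which share libraries and are not independent replicates.

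**Figure D1:**
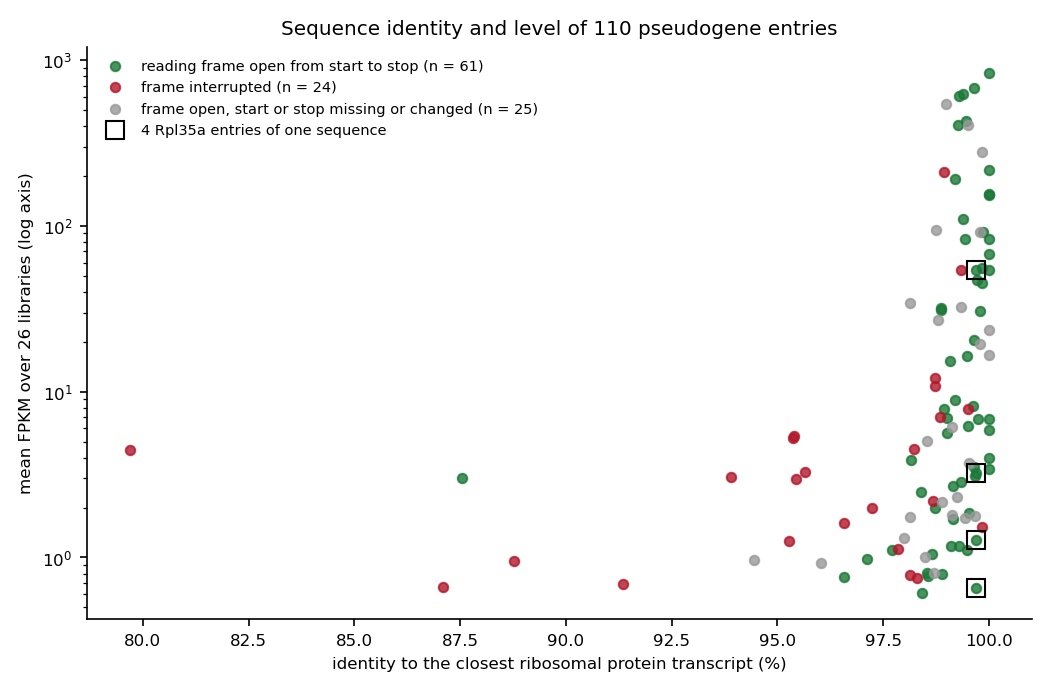
Mean FPKM over 26 libraries (log axis) of the 110 ribosomal protein pseudogenes against the percent identity of each to its closest ribosomal protein mRNA, coloured by the state of the reading frame, with the 4 identical Rpl35a copies boxed. The 15 members at 100 FPKM or more all lie at 98.9% identity or above, where low levels also occur.

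The members differed widely in level. Mean FPKM ran from 0.610 to 834 with a median of 5.13, with 15 members at 100 or more, 26 between 10 and 100 and 69 below 10. The 8 highest held 62.9% of the summed mean FPKM of all members, and 66 of the 110 were at 1 FPKM or more in every library. Just inside the level filter were Rpl5-ps1, Rpl19-ps7 and Rpl21-ps8, whose fifth-highest values were 1.01, 1.01 and 1.01 FPKM, and just outside it were Rpl30-ps11, Rpl36-ps3 and Rps2-ps11 at 0.958, 0.920 and 0.910 FPKM.

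Rps12-ps3, a copy of the small-subunit gene Rps12 (ENSMUSG00000067038), had the highest mean, 834 FPKM. It had 1244, 698, 1340, 652 and 947 FPKM in MM libraries, 467, 496, 434, 388 and 341 in MN, and 659, 1228, 863, 700 and 720 in ON. In OS its lowest, median and highest values were 757, 1136 and 1249 FPKM, and in CT it had 547, 540, 525, 1878 and 422 FPKM. All MM, OS and ON libraries were above all MN libraries, and CT lay low except for CT 4.

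The next highest were Rpl17-ps3 at a mean of 680 FPKM, Rps7-ps3 at 621 FPKM and Rpl17-ps10 at 606 FPKM. Rpl17 belongs to the large subunit, and the product of Rps7, of the small subunit, also binds the p53 regulator Mdm2. Rpl17-ps3 ranged from 355 to 2261 FPKM over the 26 libraries, Rpl17-ps10 from 253 to 1110 and Rps7-ps3 from 349 to 1507. The highest value of both Rpl17-ps3 and Rps7-ps3 was in CT 4. Rps2-ps10 (mean 431 FPKM) ranged from 257 to 540, Rps18-ps5 (mean 407 FPKM) from 142 to 1150 and Rps3a2 (mean 406 FPKM) from 176 to 755. All pairings of codes overlapped for Rpl17-ps3, Rpl17-ps10 and Rps3a2. Every ON library was below every CT library for Rps7-ps3, Rps2-ps10 and Rps18-ps5, and for Rps2-ps10 so was every MM and OS library.

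Rps10-ps2, a copy of Rps10 (a gene mutated in Diamond-Blackfan anemia in humans), had 893, 449, 900, 390 and 524 FPKM in MM libraries and 459, 465, 478, 386 and 376 in MN libraries. It had 399, 603 and 751 FPKM as the lowest, median and highest of OS, 417, 424, 497, 444 and 487 in ON, and 516, 474, 462, 1131 and 469 in CT. The codes overlapped, and CT 4 stood highest. Its parent Rps10 (ENSMUSG00000052146) averaged 3.90 FPKM and was listed at 0 in CT 4. The copy's mean FPKM was 140-fold that of the gene it came from, a fold per listed gene length and not in reads.

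Setting each member beside its parent showed a wide range of ratios. FPKM divide reads by the listed gene length, so these ratios and folds are not those of reads. Of 104 pairs, 85 pseudogenes were below the parent in all 26 libraries, and 14 had a mean FPKM above the parent, 12 of them in every library. The median over the 104 pairs of the mean log2 ratio (FPKM + 1 of pseudogene over parent) was -4.75. Rps2-ps10 was 45.3-fold and Rps2-ps13 20.2-fold above Rps2, which averaged 9.52 FPKM. Rpl21-ps15 averaged 110 FPKM, 74.5-fold its parent Rpl21 at 1.48 FPKM. Rps18-ps5 averaged 407 FPKM, 23.2-fold its parent Rps18 at 17.6 FPKM. The median ribosomal protein gene averaged 299 FPKM, and among the 78 such genes with a value Rps18 ranked 70, Rpl35a 71, Rps2 72, Rps10 75 and Rpl21 78.

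At the other end stood pseudogenes far below an abundant parent. Rpl19-ps7 averaged 0.789 FPKM and lay 990-fold below Rpl19, Rps6-ps3 907-fold below Rps6, Rpl36-ps2 670-fold below Rpl36, Rps4x-ps 662-fold below Rps4x and Rps15-ps3 426-fold below Rps15. Their mean log2 ratios (FPKM + 1), by which they were chosen as the lowest, were -8.74, -8.71, -8.67, -8.45 and -8.44, in that order. The added 1 makes these ratios less extreme than the folds of mean FPKM, and a ranking by fold can differ. For members near 1 FPKM these folds rest on few reads.

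**Figure D2:**
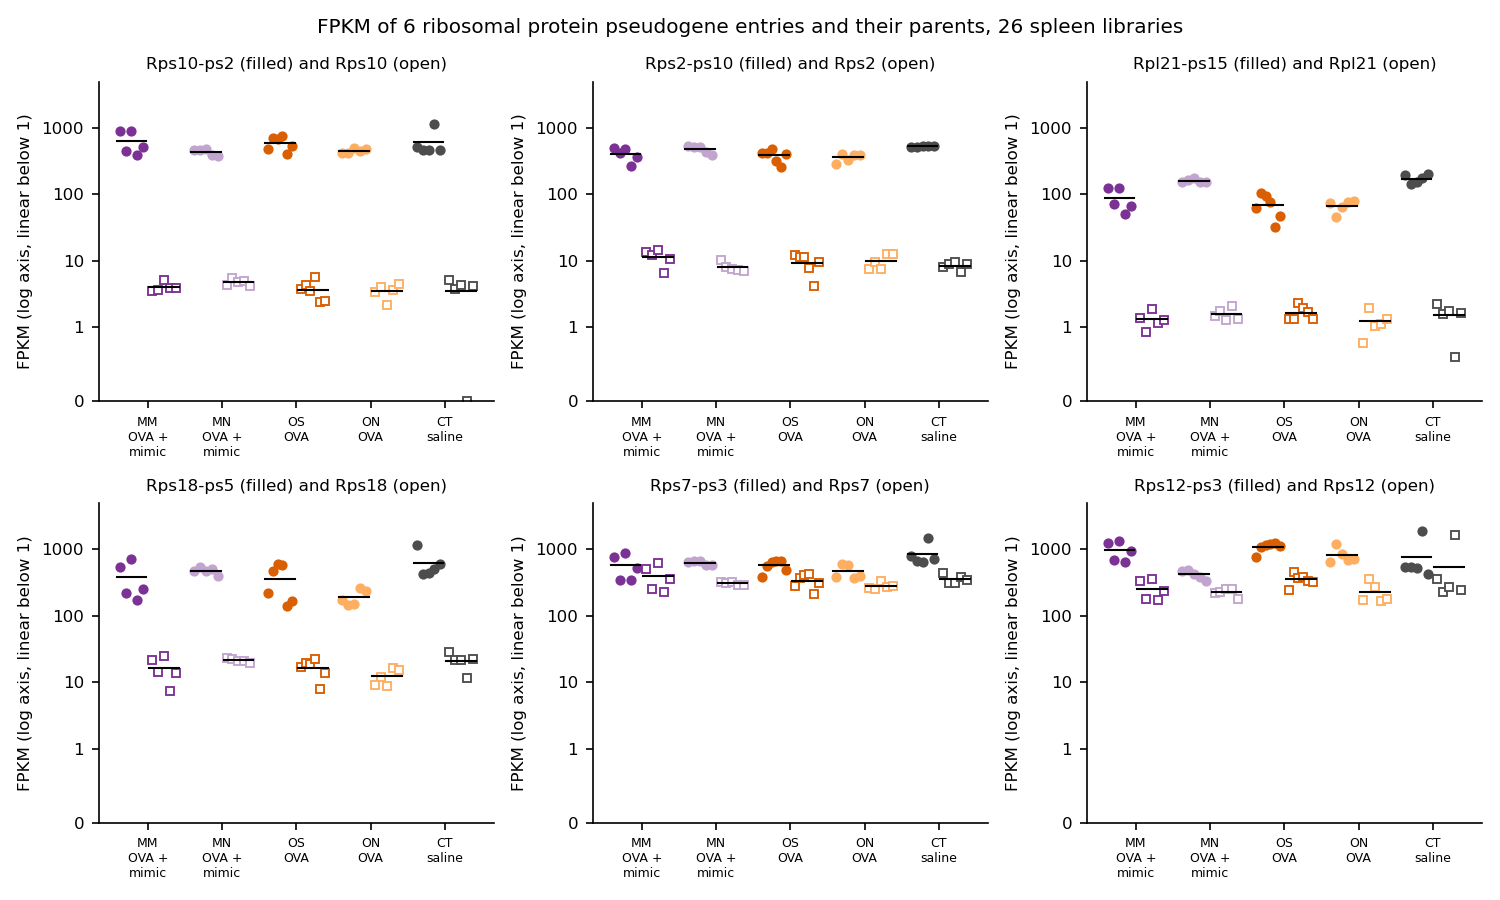
FPKM per library (log axis, linear below 1) of 6 pseudogenes (filled circles) and their parents (open squares), by code from MM, MN, OS and ON to CT, with bars at the code means. The copies of Rps10, Rps2, Rpl21 and Rps18 lie far above their parents in every library, and those of Rps7 and Rps12 lie nearer to theirs.

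Summed over a family, pseudogenes held 97.1% of the family's reads for Rps2, 96.9% for Rps10, 91.8% for Rpl21, 86.3% for Rps18 and 73.6% for Rpl17. These were the 5 families above 50%. Rps7 had 37.2%, Rps12 34.3% and Rpl35a 33.8%. Rps7-ps3 and Rps12-ps3 averaged more FPKM than their parents, yet the parents held most reads of these families. The measures can thus differ in which entry is higher, since only FPKM divide by the listed gene length. The median over 44 families was 3.86%, and 26 families were under 5%.

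The ratio to the parent varied between libraries by a median SD of 0.487 on the log2 scale. The widest spreads were 1.19 for Rpl30-ps8, 1.16 for Rps27a-ps3, 1.14 for Rps12-ps10, 1.13 for Rpl17-ps10 and 1.10 for Rpl30-ps1. Rpl17-ps10 ran from a log2 ratio of -0.41 to 3.43.

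The first question was the effect of OVA itself. Of the 110 pseudogenes, 27 fell and 2 rose under OVA at an adjusted p under 0.05 (limma on log2(FPKM + 1), Benjamini-Hochberg over 15672 genes). Over all genes tested, 1.38% were called lower and 0.785% higher. The 110 members had a median log2 difference of -0.46, against 0.01 for all genes, and 90 of them were negative. Libraries of the OVA and saline groups did not overlap for 14 members, all lower under OVA, against 0.581% of all genes. The fallen members came from both subunits and included Rps13-ps1, Rpl14-ps1, Rpl15-ps3, Rpl34-ps1, Rpl36a-ps1, Rpl9-ps6 and Rpl21-ps15. Rpl31-ps11 (log2 difference 1.27 ± 0.24 SE, adjusted p = 0.00671) and Rps12-ps10 (1.62 ± 0.39 SE, adjusted p = 0.0297) were the 2 that rose. Rpl31-ps11 passed the filter on low values, 1 FPKM in at least 5 libraries, through OVA libraries with and without mimic and 1 saline library.

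The parents' class moved the same way. Of 76 cytosolic ribosomal protein genes tested, 18 fell and 0 rose (1 higher at an unadjusted p under 0.05), with a median log2 difference of -0.53. Of 22 translation factor and related genes 1 fell, of 20 ribosome biogenesis genes 2 fell, of 29 mitochondrially encoded genes 3 fell, and 0 of each list rose by the limma fit (0, 0 and 2 at an unadjusted p under 0.05, in that order). Over all 15672 genes, 1195 were higher at that unadjusted threshold. Of 999 other pseudogenes, 67 fell and 13 rose. The erythroid markers Hba-a1, Hbb-bs and Alas2 together took 2.67 ± 1.01% of reads in OS (1.73 to 4.05%) and 2.23 ± 1.02% in ON (1.13 to 3.23%), against 3.82 ± 0.645% in CT (3.03 to 4.49%; SD). The part of this red cell share in the fall was not tested.

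Rps13-ps1, a copy of the small-subunit gene Rps13 (ENSMUSG00000066362), had the smallest p. It had 5.34, 4.18, 4.95, 6.09 and 4.07 FPKM in ON libraries and 4.27, 5.33 and 8.11 FPKM as the lowest, median and highest of OS, against 14.7, 11.0, 14.6, 12.6 and 11.1 FPKM in saline libraries. No OVA library reached the lowest saline library. The log2 difference was -1.12 ± 0.13 SE (limma, adjusted p = 0.000117). Its parent Rps13 had a log2 difference of -0.51 and did not pass (adjusted p = 0.146).

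Rpl14-ps1, a copy of the large-subunit gene Rpl14 (ENSMUSG00000046721), had 130, 183, 134, 145 and 145 FPKM in ON and 137, 144 and 152 FPKM as the lowest, median and highest of OS. In saline libraries it had 259, 267, 271, 581 and 329 FPKM. All 11 OVA libraries lay below all 5 saline libraries, and CT 4 was the highest. The log2 difference was -1.15 ± 0.15 SE (limma, adjusted p = 0.000319), and that of Rpl14 itself was -0.43 (adjusted p = 0.0472).

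Rpl15-ps3 has the same letters as the Rpl15 mRNA, which encodes a large-subunit protein. It averaged 3.49 ± 1.02 FPKM in OS and 3.27 ± 0.933 in ON, against 10.1 ± 3.23 in CT (SD, n = 6, 5 and 5), with no overlap between OVA and saline libraries. The log2 difference was -1.33 ± 0.20 SE (limma, adjusted p = 0.00102), whereas Rpl15 had -0.43 and did not pass (adjusted p = 0.211).

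Rpl34-ps1 averaged 37.8 ± 11.4 FPKM in OS and 59.8 ± 38.2 in ON, against 145 ± 37.0 in CT (SD), a log2 difference of -1.67 ± 0.27 SE (limma, adjusted p = 0.00191). ON 1, at 124 FPKM, lay within the saline range. Rpl34 had a log2 difference of -0.60 and did not pass (adjusted p = 0.121). Rpl36a-ps1 averaged 1.12 ± 0.579 FPKM in OS and 0.810 ± 0.498 in ON, against 4.44 ± 1.41 in CT, with no overlap, a log2 difference of -1.48 ± 0.24 SE (limma, adjusted p = 0.00191). Its parent Rpl36a fell too, by 0.98 on the log2 scale (adjusted p = 0.0398).

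**Figure D3:**
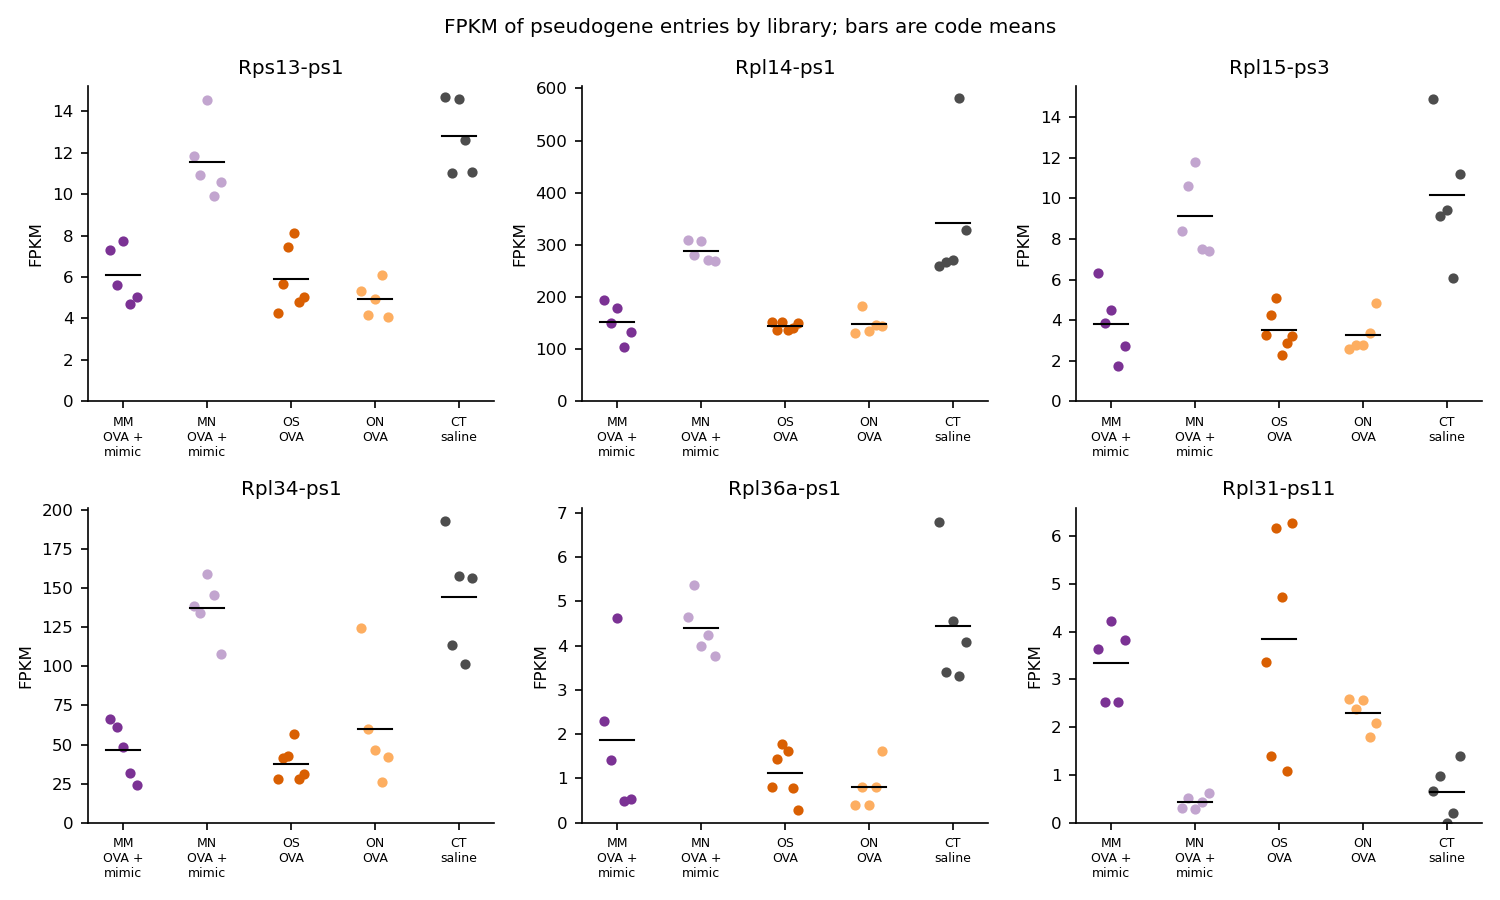
FPKM per library (points) of 6 members, by code from MM, MN, OS and ON to CT, with bars at the code means. Rps13-ps1 and Rpl14-ps1 lie lower in every MM, OS and ON library than in every MN and CT library, and Rpl31-ps11 averages higher in MM, OS and ON.

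Among the 8 members with the highest mean, none passed in any comparison of levels between groups. Rps18-ps5 came closest, under OVA, with a log2 difference of -1.26 ± 0.35 SE (limma, adjusted p = 0.0552). Rps2-ps10 was next, with -0.52 ± 0.15 SE (limma, adjusted p = 0.0594). It averaged 386 ± 83.4 FPKM in OS and 364 ± 53.7 in ON, against 529 ± 8.47 in CT (SD). The count of 29 members called under OVA depended on single libraries: it was 15 without CT 1 and 19 without CT 5. It was also 15 without the 3 libraries with many pancreas reads and 12 with 1 mean per treatment in place of 1 per code. Over all genes the calls were 152, 178, 108 and 87 in these 4 fits, in that order, where the reported fit had 340.

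Each OVA code was also set against the same 5 saline libraries, so these comparisons share their controls. OS against saline called 13 members lower and 2 higher, against 1.01% and 1.98% of all genes. ON against saline called 15 lower and 0 higher (0 by limma voom), against 0.466% and 0.0447%. At an unadjusted p under 0.05 (limma), 5 of the 110 members were higher in ON, where 809 of 15672 genes were. In OS the 5 members with the smallest p were Rps13-ps1 (log2 difference -1.02), Rpl14-ps1 (-1.16), Rpl34-ps1 (-1.92), Rpl15-ps3 (-1.29) and Rpl21-ps15 (-1.39). In ON they were Rps13-ps1 (-1.22), Rpl14-ps1 (-1.14), Rpl15-ps3 (-1.36), Rpl36a-ps1 (-1.59) and Rpl19-ps11 (-0.97), with adjusted p from 0.000444 to 0.0127 (limma). Without ON 2, the library with most pancreas reads, 7 were called in ON against saline (37 over all genes). The count was 8 without ON 1 or without ON 3 (37 and 27 over all genes), 5 without CT 1 (30), 9 without CT 5 (38) and 26 without OS 5 (200), where the reported fit called 80 genes in all. OS against ON called 0 members by limma and 0 by limma voom, where 0.0128% of all genes were called lower and 0.172% higher. At an unadjusted p under 0.05 (limma), 9 of the 110 members were higher and 0 lower, where 899 and 759 of 15672 genes were. The smallest p values there were those of Rps19-ps3 (log2 difference 0.73), Rpl19-ps7 (0.43) and Rpl27a-ps4 (0.55), with adjusted p from 0.319 to 0.352.

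The next question was the effect of the mimic on top of OVA. In OVA with mimic against OVA, none of the 110 members was called by limma or by limma voom, as for all genes (0% in either direction). At an unadjusted p under 0.05, 34 of the 110 members were higher and 4 lower with the mimic, where 847 and 743 of 15672 genes were. The median log2 difference was 0.16, against 0.003 over all genes. The smallest p values were those of Rps13-ps1 (0.57 ± 0.11 SE), Rpl36a-ps1 (0.96 ± 0.19 SE) and Rpl9-ps6 (0.95 ± 0.20 SE), all with a limma adjusted p of 0.137. With library weights 3 members were called, among 36 genes in all, and without CT 4 there were 4, among 22.

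OVA with mimic against saline also called 0 members by limma and 0 by limma voom, with 0% of all genes called. At an unadjusted p under 0.05, 31 of the 110 members were lower and 3 higher, where 570 and 483 of 15672 genes were. The members' median log2 difference was -0.31. The smallest p values were those of Rps13-ps1 (-0.56 ± 0.13 SE, limma adjusted p = 0.386), Rpl14-ps1 (-0.65 ± 0.15 SE, adjusted p = 0.389) and Rpl36a-ps3 (-0.85 ± 0.21 SE, adjusted p = 0.453). With library weights 4 were called, among 36 genes in all.

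The average over the mimic libraries joined MM and MN, which differed from each other. MM against MN called 4 members lower and 1 higher, against 0.115% and 0.0574% of all genes. Rps13-ps1 had 7.32, 5.61, 7.73, 4.69 and 5.02 FPKM in MM libraries, against 11.9, 10.9, 14.6, 9.91 and 10.6 FPKM in MN libraries. The log2 difference was -0.84 ± 0.15 SE (limma, adjusted p = 0.0194), and every MM library was below every MN library. Rpl14-ps1 had 195, 151, 178, 104 and 134 FPKM in MM, against 309, 281, 308, 271 and 269 FPKM in MN, again without overlap (log2 difference -0.94 ± 0.18 SE, adjusted p = 0.0257). The same erythroid markers took 1.99 ± 0.181% of reads in MM (1.71 to 2.16%) and 3.44 ± 1.33% in MN (2.35 to 5.48%; SD), so these codes did not overlap in that share either, and its part in the differences was not tested.

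Rpl31-ps11, a copy of the large-subunit gene Rpl31 with an interrupted frame (ENSMUSG00000062896), went the other way. It had 3.64, 2.53, 4.22, 2.53 and 3.82 FPKM in MM, against 0.308, 0.519, 0.289, 0.433 and 0.618 FPKM in MN. The log2 difference was 1.59 ± 0.28 SE (limma, adjusted p = 0.0194), with all MM libraries above all MN libraries. It had 2.60, 2.38, 2.57, 1.79 and 2.10 FPKM in ON and 1.09, 4.05 and 6.29 FPKM as the lowest, median and highest of OS, against 0.661, 0.974, 0, 0.198 and 1.39 FPKM in CT. These levels rest on a mean of 12.9 reads per library. It was at 1 FPKM or more in all MM, OS and ON libraries, in 0 MN libraries and in 1 CT library, so it passed the filter on low values through the codes where it is high.

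Rpl34-ps1 averaged 46.3 ± 18.3 FPKM in MM and 137 ± 18.8 in MN (SD, n = 5 each), a log2 difference of -1.63 ± 0.31 SE (limma, adjusted p = 0.0279). Rpl15-ps3 averaged 3.83 ± 1.75 FPKM in MM and 9.14 ± 1.96 in MN, a log2 difference of -1.13 ± 0.23 SE (limma, adjusted p = 0.0357). Neither overlapped between the codes. The count of 5 was 0 without MM 4, without MM 5 and without MN 1, MN 2 or MN 3, 2 without MN 5 and 3 without MN 4, and it was 17 with library weights and 3 by limma voom. Over all genes these fits called 1, 1, 1, 2, 2, 8, 16, 474 and 20, in that order, against 27 as reported.

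Against saline, MM gave 4 members lower and 1 higher, against 0.172% and 0.128% of all genes. MN gave 0 by limma and 0 by limma voom, where 0% of all genes were called. At an unadjusted p under 0.05 (limma), 7 of the 110 members were lower and 0 higher in MN, where 216 and 235 of 15672 genes were. The members called in MM were Rps13-ps1 (log2 difference -0.98), Rpl14-ps1 (-1.12), Rpl15-ps3 (-1.24), Rpl34-ps1 (-1.68) and Rpl31-ps11 (1.45), with limma adjusted p from 0.00376 to 0.0159. The count in MM was 2 without MM 5, 3 without MM 4, and 10 without MM 1 or without MM 3, with 20, 22, 56 and 70 genes called in all, against 47 as reported. In MN the smallest p values were those of Rpl19-ps1 (-0.43), Rpl19-ps11 (-0.48) and Rpl36a-ps3 (-0.63), all with an adjusted p of 0.910. MM and MN against saline share their controls, and the difference between them is the MM against MN comparison above.

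The ratio to the parent compares a pseudogene with its parent within each library. The 1 added to FPKM shrinks the change of a member near 1 FPKM more than that of an abundant parent. Such a ratio can therefore move against the parent even where both change by the same fold. Over 225 pairs of any -ps entry and its parent, tested together, the 104 ribosomal protein pairs gave 12 lower and 19 higher ratios under OVA against saline, against 6.67% and 11.1% of all 225 pairs. Members made up 31 of the 40 pairs called. Rps12-ps3 rose against Rps12 by 1.00 ± 0.13 SE on the log2 scale and Rpl31-ps11 against Rpl31 by 1.97 ± 0.27 SE (both limma adjusted p = 1.68e-05). Rps12-ps10 rose against Rps12 by 2.11 ± 0.33 SE (adjusted p = 8.69e-05). The ratios of Rpl9-ps6 (-1.13 ± 0.18 SE), Rpl15-ps3 (-0.90 ± 0.14 SE) and Rpl14-ps1 (-0.73 ± 0.12 SE) fell, each with a limma adjusted p of 8.69e-05. Copies of 1 parent share that parent's value, so their ratios are not independent of each other.

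Rps12-ps3 had log2 ratios of 1.25 to 1.88 in OS and 1.68 to 2.03 in ON, against 0.21 to 1.25 in CT, where CT 4 had the lowest. The highest saline library, CT 2, slightly exceeded the lowest OS library, OS 2, and otherwise the groups were apart. Rps12-ps3 and Rps12 have the same letters here, so which of them the reads of either came from is uncertain.

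In OVA with mimic against OVA, 3 ratios of the 104 fell and 2 rose, against 1.33% and 0.889% of the 225 pairs. Rpl9-ps6 rose against Rpl9 by 0.77 ± 0.15 SE (limma, adjusted p = 0.00631) and Rpl21-ps15 against Rpl21 by 0.79 ± 0.20 SE (adjusted p = 0.028). Rpl38-ps2 fell against Rpl38 by 0.86 on the log2 scale (SE 0.19, adjusted p = 0.0113), and Rpl31-ps11 fell by 0.88 (SE 0.22) and Rpl35a-ps4 by 0.75 on the same scale (adjusted p = 0.028 for both). Rpl35a-ps4 averaged 1.28 FPKM, a level at which the added 1 weighs heavily. The 5 members called were all of the pairs called. This count was 0 without the 3 libraries with many pancreas reads and 0 with 1 mean per treatment, and 12 without CT 4, among 15 of all pairs. It ranged from 2 to 12 over fits that left out 1 library each, with 2 without any of MM 1, MM 3, MN 1, MN 2, MN 3, OS 6 or ON 2, 3 without ON 1, and 9 without ON 5.

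In OVA with mimic against saline, 1 ratio fell and 2 rose, against 0.444% and 1.33% of the pairs. Rps12-ps3 rose against Rps12 by 0.66 ± 0.13 SE (limma, adjusted p = 0.0122), Rpl31-ps11 against Rpl31 by 1.09 ± 0.28 SE (adjusted p = 0.0424), and Rps2-ps10 fell against Rps2 by 0.44 on the log2 scale (adjusted p = 0.0431). This count ranged from 1 to 9 when 1 library was left out: it was 1 without CT 3, MM 2, MM 4, MM 5, MN 1, MN 2, MN 4 or MN 5, and 5, 7, 8, 8 and 9 without MM 3, OS 1, OS 2, OS 5 and MM 1.

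All 10 pairings of the 5 codes were tested for these ratios, a set completed after the data were seen. MM against MN called 11 lower and 10 higher of the 104, against 6.67% and 5.78% of the 225 pairs, and these 21 had 16 parents. The libraries of MM and MN did not overlap for 19 lower and 11 higher ratios, against 11.1% and 8.44% of all pairs. Of the 104 member pairs, MM against saline called 26, OS against saline 23, ON against saline 23, MN against OS 27 and MN against ON 25. Of all 225 pairs, members included, those called in the same 5 comparisons were 34 (15.1%), 30 (13.3%), 27 (12%), 40 (17.8%) and 34 (15.1%), in the same order. The 4 other pairings called 0 by limma, the tool used for ratios, and 0% of all pairs. At an unadjusted p under 0.05 there were 2 lower and 5 higher in MM against OS, 2 lower and 0 higher in MM against ON, 4 lower and 0 higher in OS against ON, and 1 lower and 8 higher in MN against saline. Over all 225 pairs, members included, there were 3 lower and 6 higher, 3 and 2, 6 and 0, and 3 and 8, in the same order. The smallest adjusted p among members was 0.964, 0.948, 0.881 and 0.769, in that order.

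Calls were thus made where MM, OS or ON was set against MN or CT, and in no pairing within MM, OS and ON or between MN and CT. MM and MN both received the mimic and OS and ON did not, per the labels. What sets these codes apart was not tested. Pairings that share a code share its libraries.

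**Figure D4:**
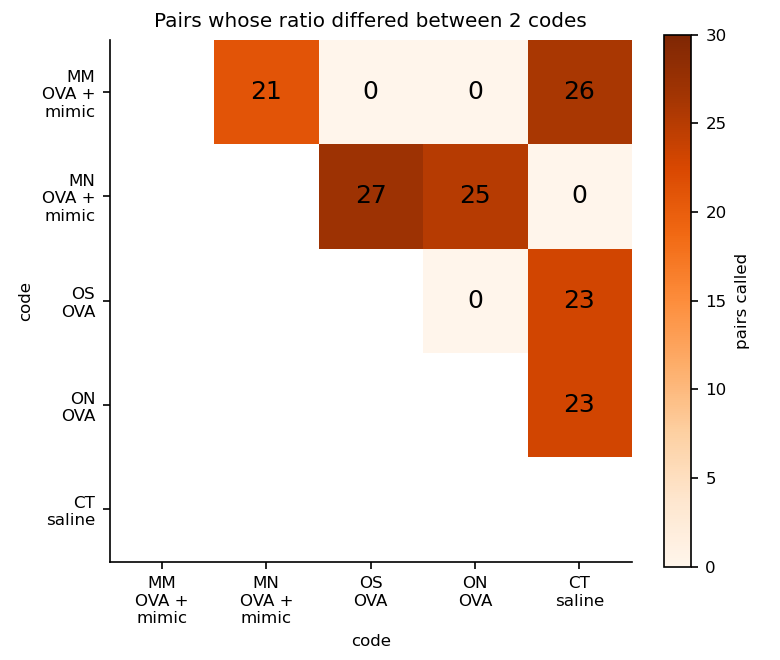
Number of the 104 pseudogene-to-parent ratios called (limma, adjusted p under 0.05 over 225 pairs) in each pairing of the codes MM, MN, OS, ON and CT. The 6 pairings of MM, OS or ON with MN or CT have 21 to 27 calls and the 4 others have 0.

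Rpl9-ps6, which the table lists as protein-coding and which differs from Rpl9 at 1 base (ENSMUSG00000062456), had the smallest p in MM against MN. It had 80.1, 55.3, 86.4, 46.2 and 54.7 FPKM in MM and 167, 168, 173, 132 and 131 FPKM in MN. It had 27.2, 64.5 and 83.5 FPKM as the lowest, median and highest of OS, 50.4, 28.8, 46.1, 46.9 and 54.0 FPKM in ON, and 178, 150, 159, 56.8 and 164 FPKM in CT. CT 4 was the saline library that lay with MM, OS and ON. Its log2 ratio to Rpl9 was -1.89 ± 0.14 in MM, -0.45 ± 0.16 in MN, -1.90 ± 0.28 in OS, -1.98 ± 0.35 in ON and -0.81 ± 0.60 in CT (SD). Rpl9 itself averaged 246 ± 81.6 FPKM in MM and 209 ± 10.2 FPKM in MN. The ratio's difference between MM and MN was -1.45 ± 0.22 SE (limma, adjusted p = 7.11e-05).

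Rps12-ps3 had log2 ratios to Rps12 of 1.89 to 1.99 in MM, against 0.59 to 1.13 in MN, a difference of 1.04 ± 0.16 SE (limma, adjusted p = 7.11e-05). Rps12 averaged 256 ± 85.4 FPKM in MM and 228 ± 31.3 FPKM in MN (SD, n = 5 each). Rps12-ps10 had a log2 ratio of -5.15 ± 0.33 in MM and -6.91 ± 0.21 in MN (SD), a difference of 1.76 ± 0.39 SE (limma, adjusted p = 0.00194). It had 6.15, 3.58, 9.65, 3.80 and 8.43 FPKM in MM, against 0.581, 1.14, 1.23, 0.818 and 0.730 FPKM in MN, with no overlap. Rps12-ps9, which differs from Rps12 at 2 bases, had -5.50 ± 0.25 in MM and -5.10 ± 0.44 in MN and did not pass (difference -0.40 ± 0.35 SE, limma adjusted p = 0.525).

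**Figure D5:**
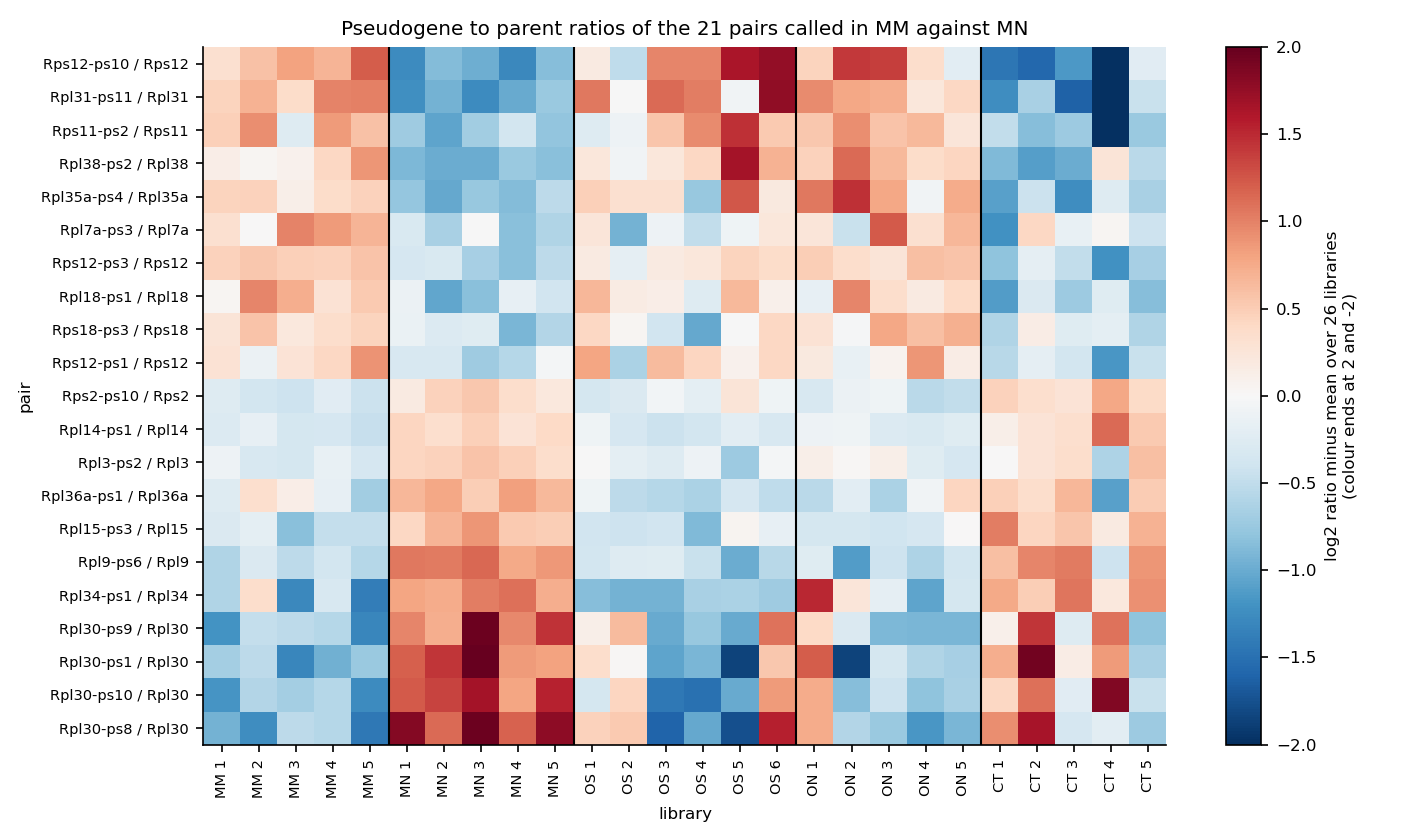
Log2 ratio of pseudogene to parent (FPKM + 1), less its mean over 26 libraries, for the 21 pairs called in MM against MN (rows) in each library (columns, by code from MM, MN, OS and ON to CT). Red is above and blue below the mean, with colour ending at 2 and -2, and Rps12-ps3 is above its mean in all 5 MM libraries while Rpl9-ps6 is below it there.

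The pairs called included 4 copies of Rpl30, a large-subunit gene. Rpl30-ps8, Rpl30-ps1, Rpl30-ps9 and Rpl30-ps10 had ratio differences of -2.52, -2.11, -2.03 and -2.17 in MM against MN. Rpl30 itself averaged 24.9 ± 10.1 FPKM in MM and 6.71 ± 0.953 FPKM in MN (SD, n = 5 each), a log2 difference of 1.65 ± 0.48 SE that did not pass (limma, adjusted p = 0.230). Rpl30-ps8 averaged 1.33 ± 1.14 FPKM in MM and 2.87 ± 0.620 in MN, and Rpl30-ps1 averaged 2.15 ± 1.29 FPKM in MM and 3.19 ± 1.30 in MN, and neither passed as a level (limma adjusted p = 0.343 and 0.830).

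Rpl38-ps2 has the same letters as Rpl38. It overlaps the span of another gene on the opposite strand, but no exon of another gene on GRCm38. It averaged 158 ± 87.3 FPKM in MM and 130 ± 12.2 in MN, while Rpl38 averaged 445 ± 298 FPKM in MM and 802 ± 110 in MN (SD). Its ratio differed by 1.20 ± 0.27 SE (limma, adjusted p = 0.00212). Rps2-ps10 had a log2 ratio of 5.03 ± 0.10 in MM and 5.72 ± 0.16 in MN, a difference of -0.69 ± 0.13 SE (limma, adjusted p = 0.000655), with no overlap. Rpl31-ps11 differed in ratio by 1.74 ± 0.32 SE (limma, adjusted p = 0.000545).

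The 21 pairs called in MM against MN and the 83 not called are described here with no test. Median identity to the parent was 99.1% for those called and 99.2% for those not called, the median of mean FPKM was 5.63 and 4.52, and the frame was open in 10 and 49 of them. The share of 100-base windows found in another gene had a median of 68.6% and 55.5%.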

How the data were processed

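The deposited table gives FPKM per gene in 26 libraries, computed by the authors. Per the submitters' processing notes, the tools were HISAT2 2.0.5, featureCounts 1.5.0-p3 and StringTie 1.3.3b, with edgeR 3.24.3, DESeq2 1.20.0 and CASAVA, with no role or order given. The build, annotation, strand setting and handling of reads with several fitting places are not given in the sources used here. All deposited values above 0 were whole reads (tolerance 0.05) once divided by the FPKM that 1 read on a gene is worth, which gave the reads per library.

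Genes with at least 1 FPKM in at least 5 libraries were tested with limma 3.58.1 (R 4.3.3), with a variance trend, on log2(FPKM + 1), which understates the change of low genes. There was 1 mean per code, and Benjamini-Hochberg adjustment ran over 15672 genes at a threshold of 0.05. Ratios to the parent were fitted over 225 pairs. The fit of levels was tested on simulated log2 values, for OVA against saline only. Sequences were aligned with Biopython 1.88 (match 2, mismatch -3, gap open -5, gap extend -2).

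Members named are the 8 highest, the up to 5 with the smallest p past the threshold in each comparison (3 where none passed), the 5 highest and 5 lowest ratios, the 5 most variable ratios, up to 3 ratios called per comparison of treatments, and 3 on each side of the filter. Others, among them the Rpl35a and further Rps12, Rpl30, Rpl38 and Rpl9 copies, were chosen after their values were seen. The members and gene lists were chosen with earlier results of these data known. An item of the marker lists is not reported here.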

Additional observations from a re-analysis of the deposited data

Results flagged for a closer look

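A library was marked when its distance from the others of its code exceeded the Dixon limit, in the 265 groups examined. For independent normal values chance marks about 1 in 20, or 13.25 groups. Members share libraries, and some were named for a variable or extreme ratio, so this number is only a rough guide. In all, 28 were found, of which 14 were in CT 4 and 3 in ON 2. These values are described without a cause, which was not tested.

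In CT 4, FPKM stood above the other saline libraries for Rps12-ps3 (1878), Rpl17-ps3 (2261), Rps7-ps3 (1507), Rps10-ps2 (1131), Rpl14-ps1 (581), Rps2-ps13 (351), Rpl19-ps11 (114), Rps15-ps3 (15.3), Rps6-ps3 (4.58) and Rpl5-ps1 (2.25), and below them for Rpl9-ps6 (56.8). The log2 ratio to the parent was high there for Rps10-ps2 (10.14), Rps2-ps13 (5.52) and Rps15-ps3 (-6.23). Mitochondrial reads were also highest in CT 4, at 6.62%.

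In CT 1, Rps18-ps5 (1150 FPKM), Rps3a2 (651 FPKM) and Rpl36a-ps3 (9.12 FPKM) were high, and in CT 3 the log2 ratio of Rpl36-ps2 was low (-9.72). In ON 2, Rpl14-ps1 was high (183 FPKM), while Rpl30-ps1 (0.258 FPKM) and the log2 ratio of Rpl21-ps15 (3.99) were low, and in ON 3 the log2 ratio of Rps10-ps2 was high (7.30). In OS 1 Rps12-ps3 was low (757 FPKM) and in OS 4 Rps19-ps3 was high (12.6 FPKM). In MM 3 Rps6-ps3 (1.06 FPKM) and Rpl21-ps8 (2.15 FPKM) were high, in MM 2 the log2 ratio of Rps4x-ps was high (-7.77), and in MN 3 that of Rps6-ps3 was low (-9.31).

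MM and MN, both labelled as OVA with mimic, differed in the level of 5 members by limma. The log2 differences were 1.59 for Rpl31-ps11, -0.84 for Rps13-ps1, -0.94 for Rpl14-ps1, -1.63 for Rpl34-ps1 and -1.13 for Rpl15-ps3. Among the ratios to the parent named by rule, they differed by -1.45 for Rpl9-ps6, 1.04 for Rps12-ps3, 1.74 for Rpl31-ps11, -0.69 for Rps2-ps10, -2.52 for Rpl30-ps8, 1.76 for Rps12-ps10, 1.20 for Rpl38-ps2 and -2.11 for Rpl30-ps1.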

How the results depend on the processing

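For levels, fitting only the libraries compared gave 17 in OVA against saline (29 as reported), 8 in OS against saline (15), 8 in ON against saline (15), 1 in MM against saline (5) and 8 in MM against MN (5). Without a filter on low values, which adds genes to the adjustment, there were 15, 7 and 0 in OVA against saline, ON against saline and MM against MN. Library weights gave 3 in mimic against OVA, 4 in mimic against saline, 36 in ON against saline, 20 in MM against saline and 17 in MM against MN, with 36, 36, 859, 518 and 474 genes called in all. One mean per treatment gave 12 in OVA against saline, and limma voom on the recovered reads gave 3 in MM against MN. Leaving out MM 2, ON 2 and ON 3 gave 15 in OVA against saline and 4 in ON against saline, and leaving out CT 4 gave 4 in mimic against OVA. The cause of these moves was not tested. Where a count in this section has no number over all genes or pairs beside it, a move of the members alone cannot be told apart.

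Leaving out 1 library at a time gave 15 to 33 in OVA against saline, 0 to 4 in mimic against OVA, 0 to 0 in mimic against saline, 12 to 18 in OS, 5 to 26 in ON and 2 to 10 in MM against saline, and 0 to 7 in MM against MN.

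For ratios, fitting only the libraries compared gave 13 in mimic against OVA (5 as reported), 14 in ON against saline (23) and 36 in MM against MN (21). Library weights gave 13 in mimic against OVA, 10 in mimic against saline and 38 in MM against MN. One mean per treatment gave 0 in mimic against OVA and 0 in mimic against saline, and a pseudocount of 0.1 gave 1 in mimic against saline. Leaving out MM 2, ON 2 and ON 3 gave 0 in mimic against OVA, 1 in mimic against saline, 12 in ON against saline and 11 in MN against ON, and leaving out CT 4 gave 12 in mimic against OVA. Leaving out 1 library at a time gave 25 to 32 in OVA against saline, 2 to 12 in mimic against OVA, 1 to 9 in mimic against saline, 21 to 27 in OS, 19 to 25 in ON and 18 to 30 in MM against saline, 18 to 27 in MM against MN, 20 to 37 in MN against OS and 17 to 28 in MN against ON. Settings for ratios between codes were added after the data were seen.

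With the replicate number as a block, 18 members were called in OVA against saline, and the ratio counts were 2 in mimic against OVA and 1 in mimic against saline. The numbers were not taken to pair libraries: over 50 same-numbered pairs of other codes, correlations of deviations ran from -0.394 to 0.356 with a median of -0.0437, and 9 exceeded 0.1.

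Of 1891 recomputed values for 54 named results, 1773 kept their direction and side of the threshold. A further 108 kept the direction and lost the threshold, 10 gained it and 0 changed direction. Results not called counted as kept when they stayed uncalled, as Rpl19-ps1 did in MN against saline. Fits without a library of a code outside the comparison, which leave its difference unchanged, were counted too. The fit without a certain saline library was counted again under another name. The share kept is therefore no measure of how steady the called results are. The planned edgeR and DESeq2 fits were not run, since the deposited values are FPKM. Members near 1 FPKM rest on few reads, which limits their ratios.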
